A study of Rattus norvegicus with 12 samples.

Results

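A set of 10 genes of macrophages and other myeloid cells was followed in failing and control rat hearts: Cd163, Mrc1, Lgals3, Gpnmb, Itgam, Lyz2, Cd68, Csf1r, Aif1 and Tyrobp. They were chosen by name, and every probe set annotated to exactly 1 of these symbols was taken, which gave 11 probe sets of the 31042 on the array and all 10 genes of the 14217 measured. Aif1 had 2 probe sets and each other gene had 1. Messenger RNA had been hybridised to 1-colour oligonucleotide arrays, 1 array per heart, from 6 failing and 6 control hearts, described as biological replicates. The study's title names the passage from compensated hypertrophy to systolic failure in the spontaneously hypertensive rat, an inbred strain with high blood pressure. For the control animals strain, age and treatment are not stated in the sources used here, nor are the age of the failing animals and the chamber sampled. The description field names a cell line, whereas the tissue field gives heart, and all 7 measured cardiomyocyte markers lay between 12.91 and 15.90 (log2 intensity) in every heart.

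Macrophages of the heart come from self-renewing resident cells and from blood monocytes that enter after injury. Resident macrophages take up debris and iron-bearing proteins through scavenger and mannose receptors, and recruited cells carry integrins for adhesion and turn on lectins and lysosomal proteins as they mature. Both depend on signals through the CSF1 receptor. For description the genes were grouped as 2 resident-type genes (Cd163, Mrc1), 4 monocyte-type genes (Lgals3, Gpnmb, Itgam, Lyz2) and 4 general genes (Cd68, Csf1r, Aif1, Tyrobp). The grouping is a convention, since macrophages of either origin can express all of them. In whole tissue, more cells of a type and more RNA per cell cannot be told apart.

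Values are log2 of the deposited intensity, where a difference of 1 is a doubling, and levels of different probe sets are not compared. All arrays had been scaled to a trimmed mean intensity between 500.19 and 500.23, so a shift of most genes in the same direction would not be seen. Precision is set by the number of arrays. Over all 14217 genes, 0 passed limma's test in either direction at an adjusted p of 0.05, and 2710 had an unadjusted p under 0.05. A second fit took only the brighter genes, since dim genes vary widely after log2. It was chosen knowing that an earlier analysis of these data had no call over all genes. The 7109 brighter genes are those whose mean reached 8.21, the median over genes. Of these 384 passed with the higher level in failing hearts (5.4%) and 336 with the lower (4.73%). With each array centred on its median the split was 335 and 178. Hereafter "rose" means called among the brighter genes. Cd163 (mean 8.02) and Itgam (mean 6.42) were dimmer than this. As genes they were tested only over all genes and among genes with a mean of at least 6.

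In failing hearts 4 genes of the set rose: Mrc1, Lgals3, Gpnmb and Lyz2. They were 4 of the 8 members among the brighter genes (50%), beside the 5.4% of all brighter genes that were called higher, and 0 members fell. Their differences lay between 0.76 and 1.24 (log2, 1.69-fold to 2.37-fold). Cd163 differed by as much (1.27), lay just below the cut for brighter genes and did not pass over all genes. Cd68 and Csf1r differed by less and did not pass. Tyrobp and Itgam had differences smaller than the SD among hearts of either group. Aif1 did not pass, and its 2 probe sets pointed in opposite directions. The median difference of the 10 genes was 0.69, beside -0.03 over all genes. Over all genes 0 of the 10 passed, and 7 had an unadjusted p under 0.05 with the higher level in failing hearts, where 9.12% of all genes did. Fitted by probe set instead, the same 4 passed among the 15521 brighter probe sets, where 2.76% of probe sets passed as higher and 1.48% as lower, and 0 of the 10 passed among genes with a mean of at least 6, where 1.57% did. In 0 of the 10 genes did every failing heart exceed every control heart, beside 1.26% of all genes and 2.11% of the brighter ones.

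**Figure D1:**
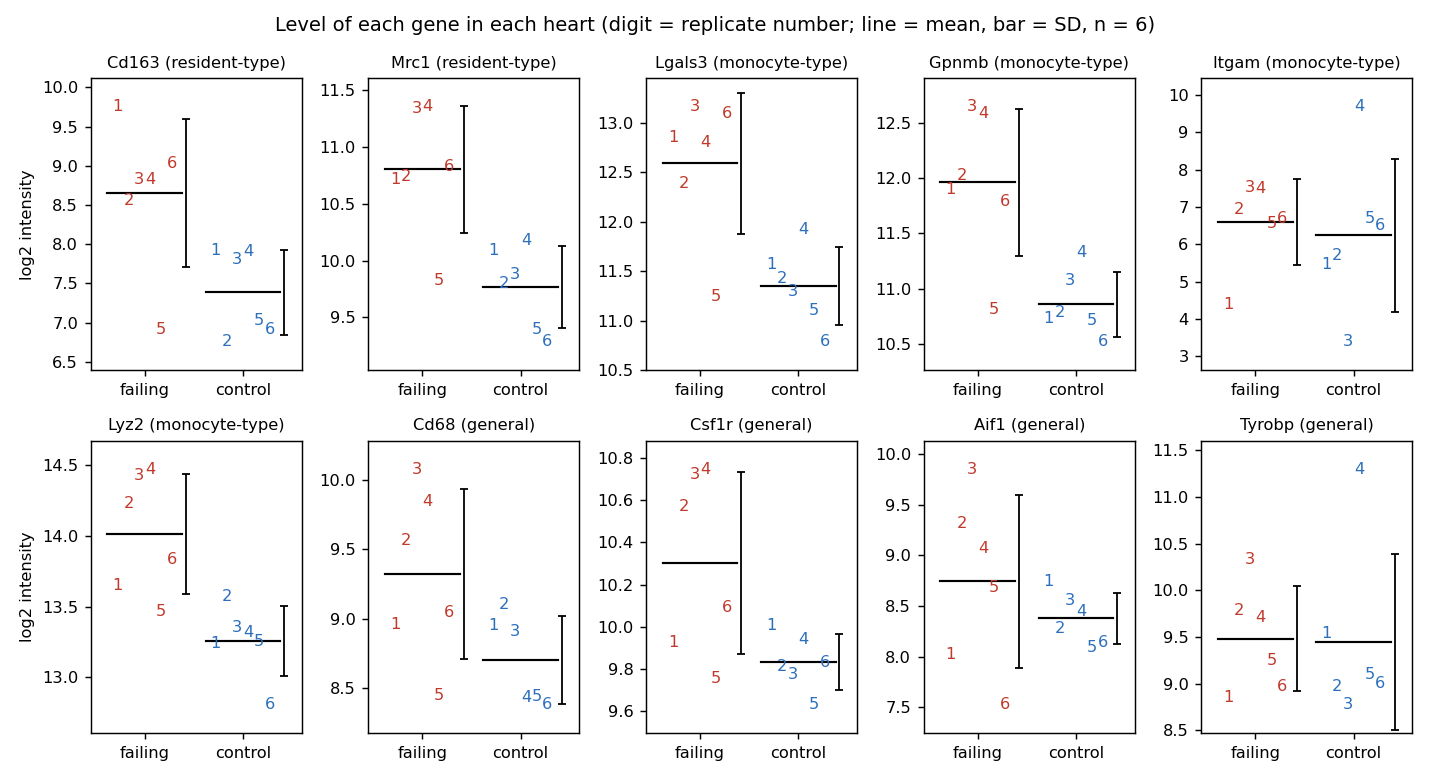
Log2 intensity (vertical axis, a separate range for each gene) of the 10 genes in 6 failing and 6 control hearts. Digits are replicate numbers, lines are group means and bars are SDs. Failing replicate 5 lies within the control range for Cd163, Mrc1, Lgals3 and Gpnmb, and control replicate 4 stands above all other hearts for Itgam and Tyrobp.

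The sequences before the start sites are shown for the 2 resident-type genes, which are set against the monocyte-type genes, and for the called genes with an entry in the RefSeq promoter table (build GRCr8). The table held 7 of the 10 genes. Capitals mark 3 motifs, read on both strands: GAGGAA, the core of the box bound by PU.1, the ETS factor of the myeloid lineage; CANGTG, an E-box form that includes sites of the MITF and TFE factors of lysosomal genes; and TGANTCA, the AP-1 form. Where motifs overlap, their capitals run together. Each sequence is the 250 bases before the start, 5′ to 3′.
Cd163, chr4:158770524-158770773, plus strand: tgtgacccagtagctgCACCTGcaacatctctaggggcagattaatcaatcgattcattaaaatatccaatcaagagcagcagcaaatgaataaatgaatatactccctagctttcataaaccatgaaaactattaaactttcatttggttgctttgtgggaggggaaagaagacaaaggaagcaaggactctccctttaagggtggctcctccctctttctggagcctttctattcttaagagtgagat
Mrc1, chr17:82157475-82157724, plus strand: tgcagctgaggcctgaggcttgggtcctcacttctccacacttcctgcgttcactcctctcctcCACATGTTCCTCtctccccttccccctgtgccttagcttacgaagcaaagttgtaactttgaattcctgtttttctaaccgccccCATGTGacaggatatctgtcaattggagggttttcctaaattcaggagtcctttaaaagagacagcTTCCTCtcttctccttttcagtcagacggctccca
Gpnmb, chr4:79340878-79341127, plus strand: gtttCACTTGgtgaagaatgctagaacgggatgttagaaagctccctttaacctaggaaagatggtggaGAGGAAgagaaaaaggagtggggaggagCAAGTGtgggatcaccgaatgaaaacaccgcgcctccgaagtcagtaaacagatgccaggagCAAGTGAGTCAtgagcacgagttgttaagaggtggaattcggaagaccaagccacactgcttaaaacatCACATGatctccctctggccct
Lyz2, chr7:54798012-54798261, minus strand: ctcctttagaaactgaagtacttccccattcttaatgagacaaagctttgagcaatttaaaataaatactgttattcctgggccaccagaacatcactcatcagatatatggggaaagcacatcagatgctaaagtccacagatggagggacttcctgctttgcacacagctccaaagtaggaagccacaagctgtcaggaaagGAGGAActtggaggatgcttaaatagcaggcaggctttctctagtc
GAGGAA was found in 6 of the 7 windows (all but that of Cd163), beside 23.3% of all 33469 windows of this length. CANGTG was in 4 of 7 (38.4% of all) and TGANTCA in 2 of 7 (6.34% of all), those of Gpnmb and Cd68. A match of letters is a description and not a binding site.

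Cd163, the scavenger receptor for haemoglobin bound to haptoglobin and the ED2 antigen by which resident macrophages are recognised in the rat, ran from 6.91 over a median of 8.83 to 9.76 in failing hearts, against 6.75, 7.41 and 7.91 in control hearts. Of the 6 failing hearts 5 lay above every control heart, and failing replicate 5 lay within the control range. The difference was 1.27 ± 0.42 (log2 fold change ± SE, n = 6 per group; limma adjusted p = 0.144 over all genes), the 95% interval running between 0.36 and 2.18. Cd163 also did not pass among the brighter probe sets (limma adjusted p = 0.0709) or among genes with a mean of at least 6 (limma adjusted p = 0.0884). Over all genes it passed when failing replicate 5 was left out (1.62, limma adjusted p = 0.0248).

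Mrc1 encodes the mannose receptor, an endocytic receptor of tissue macrophages. It ran from 9.83 over a median of 10.79 to 11.36 in failing hearts, against 9.28, 9.84 and 10.18 in control hearts. Again 5 of 6 failing hearts exceeded every control heart, the exception being replicate 5. Mrc1 rose by 1.03 ± 0.24 (2.05-fold; limma adjusted p = 0.0229 among the brighter genes and 0.0934 over all genes). Leaving out failing replicate 3, failing replicate 4 or control replicate 6 ended the call (limma adjusted p from 0.0514 to 0.0549).

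Lgals3 encodes galectin 3, a lectin secreted by activated macrophages and studied as a blood marker of heart failure. Its levels ran from 11.24 over a median of 12.83 to 13.16 in failing hearts, against 10.78, 11.36 and 11.92 in control hearts. Failing replicates 3 and 6 were highest, and replicate 5 alone of the failing hearts lay within the control range. Lgals3 rose by 1.24 ± 0.29 (2.37-fold; limma adjusted p = 0.0231 among the brighter genes and 0.0934 over all genes). Leaving out any of failing replicates 3, 4 and 6 or control replicate 6 ended the call (limma adjusted p from 0.0502 to 0.0563).

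Gpnmb, a transmembrane glycoprotein of lysosome-rich macrophages, ran from 10.82 over a median of 11.96 to 12.65 in failing hearts, against 10.52, 10.76 and 11.33 in control hearts. Failing replicates 3 and 4 were highest, and replicate 5 fell among the control hearts. The rise was 1.10 ± 0.26 (2.15-fold; limma adjusted p = 0.0238 among the brighter genes and 0.0934 over all genes).

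Lyz2 encodes the lysozyme of macrophages and neutrophils. It ran from 13.47 over a median of 14.04 to 14.47 in failing hearts, against 12.81, 13.29 and 13.57 in control hearts. Failing replicate 5 lay below control replicate 2, the highest control heart, and the other failing hearts lay above it. Lyz2 rose by 0.76 ± 0.18 (1.69-fold; limma adjusted p = 0.0254 among the brighter genes and 0.0941 over all genes). Gpnmb and Lyz2 were not called when any of failing replicates 3 and 4 and control replicates 1 and 6 was left out (limma adjusted p from 0.0532 to 0.0594).

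Itgam, the alpha M chain of the CD11b/CD18 integrin by which monocytes, neutrophils and natural killer cells adhere, had the widest SD among hearts of the 10 genes in both groups (1.16 in failing and 2.06 in control hearts). It ran from 4.38 over a median of 6.81 to 7.53 in failing hearts, against 3.38, 6.10 and 9.69 in control hearts. The highest and the lowest of the 12 values were both those of control hearts, replicates 4 and 3. The difference of 0.36 ± 0.90 did not pass (limma adjusted p = 0.86 over all genes). It was 1.06 without control replicate 4 (limma adjusted p = 0.389) and -0.21 without control replicate 3.

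Cd68, a lysosomal glycoprotein and the rat ED1 antigen of macrophages at large, ran from 8.45 over a median of 9.30 to 10.07 in failing hearts, against 8.38, 8.67 and 9.10 in control hearts. Failing replicates 2, 3 and 4 exceeded every control heart, and the others overlapped with them. The difference was 0.62 ± 0.25 (limma adjusted p = 0.112 among the brighter genes, and 0.0254 without failing replicate 5). Csf1r, the receptor for CSF1 and IL-34 on which macrophage survival depends, ran from 9.76 over a median of 10.33 to 10.75 in failing hearts, against 9.63, 9.82 and 10.01 in control hearts. Failing replicates 2, 3, 4 and 6 exceeded every control heart. Its difference was 0.47 ± 0.17 (limma adjusted p = 0.0858 among the brighter genes, and 0.0245 without failing replicate 5).

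The probe sets of Aif1, the actin-bundling protein IBA1 of macrophages and microglia, pointed in opposite directions. The brighter one, whose name marks it as matching several transcripts, ran from 7.53 over a median of 8.87 to 9.85 in failing hearts, against 8.09, 8.36 and 8.75 in control hearts. Failing hearts spread on both sides of the control range, and the difference was 0.36 ± 0.31 (limma adjusted p = 0.451 among the brighter genes). The dimmer one averaged 6.27 ± 0.80 in failing hearts and 7.02 ± 0.27 in control hearts (SD, n = 6 each), a difference of -0.75 ± 0.33 that did not pass (limma adjusted p = 0.329 over all probe sets). No direction is therefore given for Aif1.

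Tyrobp encodes DAP12, the adaptor that carries the signal of TREM2 and of activating receptors on myeloid and natural killer cells. Its levels ran from 8.85 over a median of 9.48 to 10.32 in failing hearts, against 8.77, 9.05 and 11.29 in control hearts. Control replicate 4 was the highest of all 12 hearts, and the difference of 0.04 ± 0.38 did not pass (limma adjusted p = 0.961 among the brighter genes; 95% interval over all genes from -0.88 to 0.95). Without control replicate 4 it was 0.41 (limma adjusted p = 0.228).

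**Figure D2:**
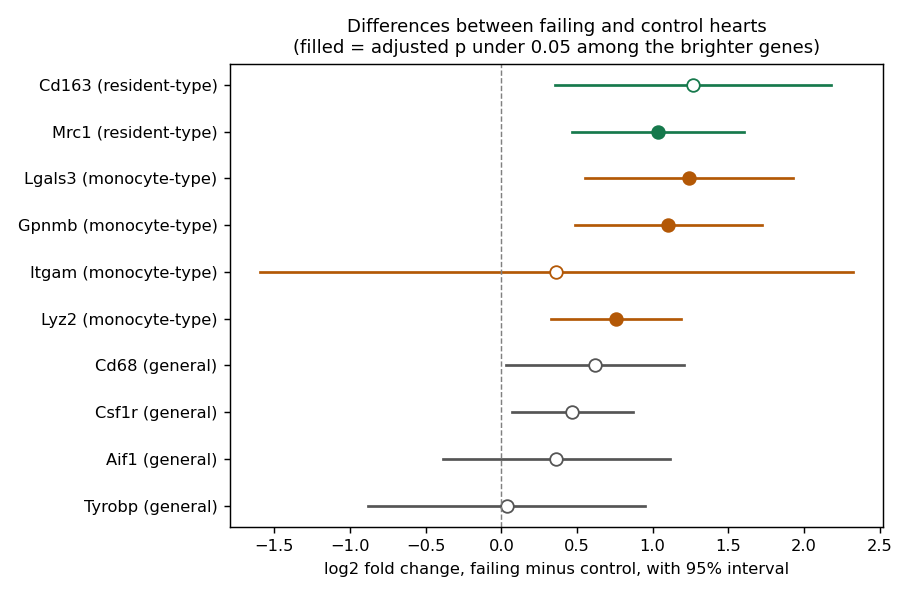
Log2 fold change of each gene, failing minus control, with its 95% interval from the limma fit over all genes (horizontal axis, log2). Filled points (Mrc1, Lgals3, Gpnmb, Lyz2) passed among the brighter genes. The intervals of Itgam, Aif1 and Tyrobp span 0, where Aif1 is drawn by its brighter probe set.

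Resident-type and monocyte-type genes were set against each other by taking the difference of their log2 values within each heart, for 8 pairs. In 0 of the 8 pairs did the difference between failing and control hearts pass an exact permutation test (adjusted p over the 8 pairs from 0.742 to 0.916, two-sided). Lgals3 differed from Mrc1 by 0.21 more (95% interval from the pooled SD, -0.13 to 0.55) and from Cd163 by -0.03 (-0.58 to 0.53). Gpnmb differed from Mrc1 by 0.07 (-0.19 to 0.33) and Lyz2 from Mrc1 by -0.27 (-0.65 to 0.10). Pairs with Itgam had intervals as wide as -3.40 to 1.59. A difference of a doubling between Lgals3, Gpnmb or Lyz2 and Mrc1 lies outside these intervals. Limits against Cd163 were wider. Gpnmb differed from Cd163 by -0.16 (-0.91 to 0.58) and Lyz2 from Cd163 by -0.51 (-1.49 to 0.47), an interval that includes a doubling. For Itgam the data set no useful limit.

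The hearts of 1 group differed from each other. Measured against the control mean of each gene, the median of the 10 genes was 1.41 in failing replicate 3, 1.24 in replicate 4, 0.95 in replicate 2, 0.51 in replicate 6, 0.32 in replicate 1 and -0.06 in replicate 5. In control hearts it lay between -0.39 (replicate 6) and 0.44 (replicate 4). Failing replicate 5 was the lowest failing heart for 7 of the 10 genes, and replicate 3 the highest for 6. Failing replicate 1 had a profile of its own, with the highest Cd163 of all hearts (9.76), and with Itgam at 4.38 and Tyrobp at 8.85, the lowest of the failing hearts. In failing replicate 5 Myh6, the alpha-myosin heavy chain that is lost in failing rat hearts, was at 15.26, against 12.91 to 14.37 in the other failing hearts. Control hearts lay between 14.13 and 15.46. The lowest of them was replicate 4, and the next was at 15.23.

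**Figure D3:**
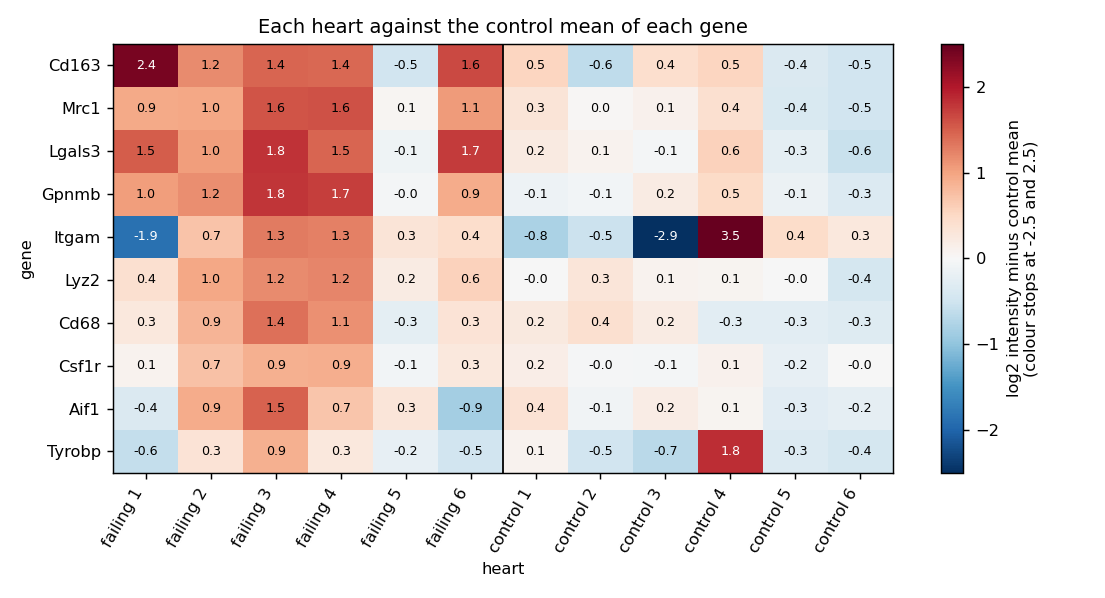
Log2 intensity of each gene (rows) in each heart (columns) less the mean of the 6 control hearts for that gene. Aif1 is shown by its brighter probe set. Failing replicates 2, 3 and 4 are above the control mean for all 10 genes as shown, and failing replicate 5 lies close to it. Control replicate 4 is far above it for Itgam (3.46) and Tyrobp (1.85) only. By the dimmer probe set of Aif1, failing replicates 2, 3 and 4 are below the control mean.

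Control replicate 4 carried high levels of other leukocyte genes. The natural killer cell genes Nkg7, Klrb1a and Klrd1, named after their values were seen, stood at 12.16, 12.49 and 12.18 there, whereas the highest of the other 11 hearts had 7.01, 6.60 and 6.58. That is 35.4-fold, 59.5-fold and 48.5-fold over the next heart. The pan-leukocyte gene Ptprc (CD45) stood at 11.69 in control replicate 4, 6.44-fold over the next heart. Itgb2, the CD18 partner of Itgam, stood at 10.80 there and at most at 9.89 elsewhere. The T-cell genes Cd3e (6.18), Cd3d (4.80) and Cd3g (5.75) were not the highest there. Cd68, by contrast, ranked 11 of 12 in this heart, and the other genes of the set except Itgam and Tyrobp ranked between 6 and 9. Among the 6 control hearts alone it was the highest for 5 genes of the set, Itgam, Tyrobp and the called genes Mrc1, Lgals3 and Gpnmb. Without it the differences of these 3 lay between 1.11 and 1.36. The summed intensity of the 10 measured T, B and NK cell markers was 384 to 926 in failing hearts, against 571 to 690 in 5 control hearts and 15401 in control replicate 4. The summed cardiomyocyte markers were 179846 in control replicate 4, the lowest control heart. The part of these cells in the values of Itgam and Tyrobp was not tested, apart from the values without this heart given above.

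Within groups the genes varied together in part. After removing group means, 16 of the 45 pairs of genes correlated over the 12 hearts at an adjusted permutation p under 0.05, with r from 0.71 to 0.92, and 12 of these also passed by Spearman's rho. The closest pair was Mrc1 and Gpnmb (r = 0.92, permutation p = 5e-05, adjusted p = 0.00112; rho = 0.83, permutation p = 0.00127, adjusted p = 0.0246), with r = 0.86 without failing replicates 3 and 4. Lyz2 and Cd68 came next (r = 0.91, permutation p = 4e-05, adjusted p = 0.00112; rho = 0.91, permutation p = 2e-04, adjusted p = 0.009), with r = 0.83 without the same hearts. Cd163 correlated with Lgals3 (r = 0.83, permutation p = 0.00213, adjusted p = 0.00836; rho = 0.71, permutation p = 0.0132, adjusted p = 0.0496), and without failing replicate 1 and control replicate 2 r was 0.95. Itgam and Tyrobp correlated with each other (r = 0.82, permutation p = 0.00044, adjusted p = 0.00495; rho = 0.80, permutation p = 0.00243, adjusted p = 0.0246), where r was 0.59 without control replicates 3 and 4, and neither had another pair past the threshold. Some pairs were correlated among failing hearts and hardly among control hearts, such as Lyz2 and Csf1r (r = 0.998 and -0.05), Gpnmb and Cd68 (0.949 and 0.00594) and Cd68 and Csf1r (0.974 and 0.221), a difference that was not tested. Values of 1 heart share an array, and quantile normalization moved r for Lyz2 and Cd68 to 0.78 and for Gpnmb and Lyz2 to 0.87, against 0.91 and 0.81 without it.

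**Figure D4:**
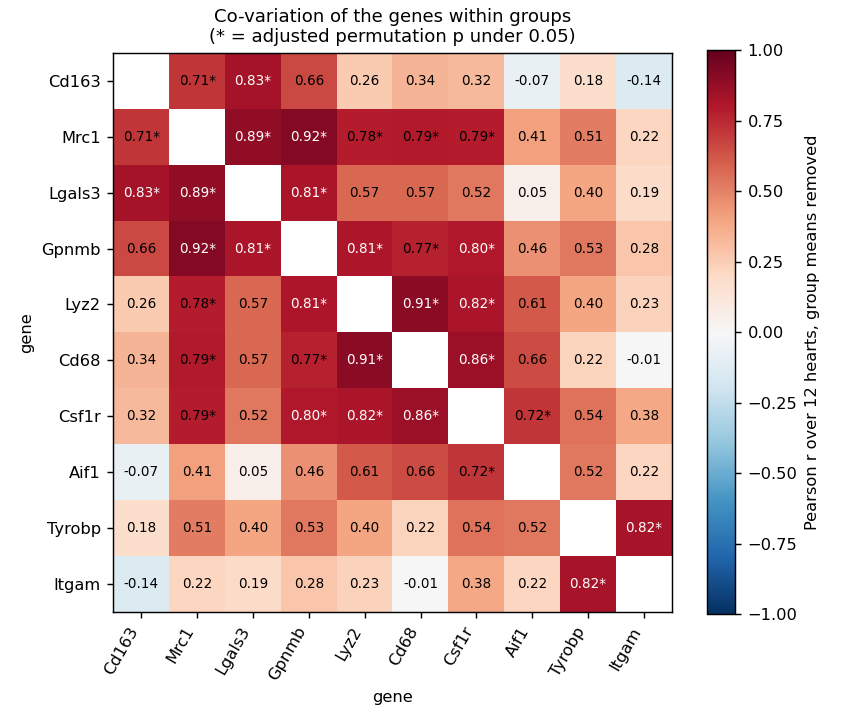
Pearson r over 12 hearts for each pair of genes (rows and columns) after removing the group means. Asterisks mark the 16 pairs with an adjusted permutation p under 0.05. Itgam and Tyrobp are linked to each other (0.82) and to no other gene past the threshold.

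The brighter genes most like 3 of the members over the 12 arrays were found by Pearson's r on log2 values, group difference included, as a description. For Lgals3 they were Pdcd4 (r = 0.963), the xanthine dehydrogenase gene Xdh (0.960), the lysosomal protease cathepsin S gene Ctss (0.956) and Sav1 (0.955). For Cd68 they were the myeloid lectin receptor gene Clec4a3 (0.97), the complement C5a receptor gene C5ar1 (0.94), Steap3 (0.93) and Oaf (0.92). For Cd163 they were Tmx1 (0.94), Id1 (0.93), Enpp2 (0.93) and the endothelial von Willebrand factor gene Vwf (0.92).

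Other macrophage genes were taken from 3 lists, whose counts stand beside the 5.4% of all brighter genes that were called higher. Of the resident-type list, 11 of 15 genes were measured, 9 were among the brighter genes, 1 rose and 0 fell (median difference of the list 0.24). Clec10a, a galactose-binding lectin, rose (0.86 ± 0.28 from the fit over all genes; limma adjusted p = 0.0477 among the brighter genes), a call that ended without any 1 of 9 hearts (limma adjusted p up to 0.105), with quantile normalization (0.0501), with the mean of probe sets and with an RNA quality covariate. Clec10a has 1 probe set, so with the mean of probe sets its difference stayed at 0.86 and only values of other genes changed. Lyve1, the hyaluronan receptor of resident cardiac macrophages and lymphatic vessels, ran from 10.97 to 11.79 in failing hearts, against 9.96 to 11.61 in control hearts, a difference of 0.73 ± 0.26 that did not pass (limma adjusted p = 0.0659 among the brighter genes) and passed without failing replicate 5 or control replicate 4. The folate receptor gene Folr2 differed by 0.48 ± 0.26 (limma adjusted p = 0.201). The summed intensity of this list was 21788 to 32892 in failing hearts, against 20335 to 23327 in control hearts. Such a sum is weighted towards bright genes, here above all Selenop (13.61 to 14.26 in failing hearts, 13.43 to 13.80 in control hearts).

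Of the list of monocyte-derived and recruited cells, 11 of 15 genes were measured, 5 were among the brighter genes, 2 rose and 0 fell (median difference 0.0047). To any extent, 6 of the 11 were higher in failing hearts. Plac8 (-0.72), Ly6c (-0.43), Il1b (-0.33), S100a9 (-0.15) and S100a8 (-0.0048) were lower and did not pass. Control replicate 4 was the highest of all hearts for Plac8 (10.87), S100a9 (11.05) and S100a8 (9.44). Without control replicate 4 their differences were -0.22, 0.35 and 0.45. For Ly6c (10.92) and Il1b (6.70) it was instead the lowest control heart. The tetraspanin gene Cd9 rose by 0.76 (limma adjusted p = 0.0159) and was called without any 1 heart in turn. The osteopontin gene Spp1, which fibroblasts also express, rose by 2.00 ± 0.52 (3.99-fold; limma adjusted p = 0.0239), a call that ended without any 1 of 4 hearts (limma adjusted p from 0.0517 to 0.0552). Ccr2, the chemokine receptor of recruited monocytes, was dim, at 1.54 to 7.09 in failing hearts, against 3.29 to 5.39 in control hearts, and did not pass (limma adjusted p = 0.792 over all genes). Trem2, the lipid-sensing receptor that signals through Tyrobp, averaged 7.68 ± 0.57 in failing hearts and 6.71 ± 0.94 in control hearts (SD, n = 6 each; limma adjusted p = 0.241 over all genes). The summed intensity of the list was 8490 to 17446 in failing hearts, against 6423 to 14796 in control hearts. Without control replicate 4 the highest control sum was 8496.

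The general macrophage and phagocyte list had 22 of 25 genes measured, 15 among the brighter genes, 4 that rose and 0 that fell (median difference 0.12). Ctss rose by 1.23, and it was called without any 1 heart in turn (limma adjusted p from 5.36e-04 to 0.046). The other 3 were the complement genes C1qa (0.93), C1qb (1.09) and C1qc (1.04), which macrophages make together, with limma adjusted p between 0.0259 and 0.046. Each call ended when 1 of several hearts was left out (limma adjusted p up to 0.101), and C1qa's also with quantile normalization (0.0531) or the mean of probe sets (0.0633). C1qa has 1 probe set, so with that mean its difference stayed at 0.93 and only values of other genes changed. Ptprc (-0.66 ± 0.73) and the macrophage receptor gene Adgre1 (-0.58 ± 0.47) did not pass over all genes (limma adjusted p = 0.657 and 0.532). The summed intensity of the list was 13975 to 35672 in failing hearts, against 11140 to 51587 in control hearts. The highest control sum was 16555 without control replicate 4. Control replicate 4 was the highest of the 12 hearts for 8 of the 22 genes, and without it 6 of the list rose. Without it 2 of the resident-type list and 2 of the recruited list rose, and without failing replicate 5 the counts were 5 for the general, 3 for the resident-type and 2 for the recruited list. Calls of higher genes also increased over all 7109 brighter genes. They went from 384 to 726 without control replicate 4 and to 596 without failing replicate 5.

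Ligands and partners of the 10 genes formed a further list. Of 21 genes, 18 were measured, 10 were among the brighter genes, 1 rose and 0 fell (median difference 0.05), beside 5.4% of all brighter genes called higher. Icam1, a ligand of the Itgam integrin on endothelium, rose by 0.80 (limma adjusted p = 0.034 among the brighter genes), a call that ended without any 1 of 9 hearts (limma adjusted p up to 0.0762). Csf1 was at 10.17 to 10.67 in failing hearts, against 10.38 to 10.62 in control hearts, differing by -0.07 ± 0.11 (95% interval, -0.30 to 0.16; limma adjusted p = 0.671 among the brighter genes). The other ligand of Csf1r, Il34, differed by 0.47 ± 0.22 (limma adjusted p = 0.273 over all genes). Itgb2 averaged 8.98 ± 0.64 in failing hearts and 8.98 ± 0.94 in control hearts (SD, n = 6 each; limma adjusted p = 0.998 among the brighter genes).

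Markers of other cells also moved between the groups, where 5.4% of all brighter genes were called higher and 4.73% lower. Of 8 fibroblast markers, all among the brighter genes, Dcn (0.50), Vim (0.78) and Pi16 (2.18) rose, and their summed intensity was 62810 to 110706 in failing hearts, against 50189 to 71452 in control hearts. Pdgfrb (0.59) and Tagln (0.99) rose of 5 brighter smooth muscle and pericyte markers, with a summed intensity over 6 markers of 4248 to 10048 in failing hearts, against 3776 to 6162 in control hearts. Of 7 endothelial markers Vwf rose (1.10) and Emcn fell (-0.78), with sums of 12784 to 17111 in failing hearts, against 11571 to 14689 in control hearts. Of the neutrophil and mast cell markers 2 of 9 were among the brighter genes, Lcn2 rose (0.76), and the sums were 1334 to 2587 in failing hearts, against 822 to 3673 in control hearts. The 7 cardiomyocyte markers had 0 calls, Myh6 having their smallest p (-1.03; limma adjusted p = 0.0533 among the brighter genes, called lower without failing replicate 5 or control replicate 4, limma adjusted p down to 0.0105), with sums of 179814 to 295890 in failing hearts, against 179846 to 295955 in control hearts. Sums over 3 red blood cell markers overlapped (15309 to 44438 in failing hearts, against 17707 to 43499 in control hearts), and 0 were called, Slc4a1 having their smallest p (limma adjusted p = 0.394 over all genes). Control replicate 4 held the highest control sum of the endothelial, the neutrophil and mast cell, and the red blood cell markers. Without it the highest control sums were 13464, 1966 and 35111. T, B and NK cell markers had 0 of 10 among the brighter genes, and Cd8a had their smallest p (-2.07; limma adjusted p = 0.138 over all genes). The calls of Dcn, Vim and Vwf held without any 1 heart in turn, and those of Pi16, Tagln, Pdgfrb, Lcn2 and Emcn ended without any 1 of 9, 8, 7, 10 and 4 hearts (limma adjusted p up to 0.0995). With the mean of all probe sets the calls of Pdgfrb (0.25; limma adjusted p = 0.631), Tagln (0.0515) and Lcn2 (0.0636) ended, and that of Lcn2 also with quantile normalization or median centring. The differences of Tagln and Lcn2 stayed at 0.99 and 0.76 with that mean, whereas that of Pdgfrb changed. The part of these other cells in the rise of the macrophage genes was not tested.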

How the data were processed

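Per the labels' protocols, Trizol and an RNeasy clean-up gave the total RNA of rat heart tissue, of which 6 µg was made into biotin-labelled cRNA. These name 4 groups, 2 of which received captopril and are not analysed here. The authors deposited linear intensity values (31099 probe sets, 0.1 to 79913.6). RMA is named, without a version, in the submitters' processing notes. RMA usually gives log2 values, so which summary made the scaled linear values is unknown, and no genome build or detection calls are given in the sources used here. The table held 0 columns of other samples.

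The deposited values were taken to log2 without any offset. After leaving out 57 control probe sets, 20826 of 31042 had 1 gene symbol and 436 had several. The brightest probe set stood for each gene. Groups came from the titles. Fits used limma 3.58.1 in R 4.3.3 (lmFit, eBayes, group as the only term, Benjamini-Hochberg over the whole table, two-sided). SE beside a called gene of the set, and beside Cd68, Csf1r, Aif1 and Tyrobp, is from the fit to brighter genes, and elsewhere from the fit over all genes or probe sets. Correlations used 100000 permutations. Members, lists, tests and the naming rule were chosen with earlier results of these data known. The rule names all members, 10 fixed genes, up to 4 called genes of each list (or that with the smallest p), and the 4 genes most like Lgals3, Cd163 and Cd68. Selenop, and the genes of the recruited list that were lower in failing hearts, are named outside this rule. Same-numbered hearts did not deviate together (correlations from -0.03 to 0.07 over genes), so numbers were not taken as pairs. The fits were tested on simulated data. Figures were drawn with matplotlib 3.10.9.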

Additional observations from a re-analysis of the deposited data

Results flagged for a closer look

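Among 41 genes examined in both groups (82 groups of 6 hearts), 12 groups held a heart far from the others, where chance flags about 1 in 20. Control replicate 4 was that heart in 9 of them. It was the highest control heart for Tyrobp (11.29, next 9.54), Ptprc (11.69, next 8.02), Itgb2 (10.80, next 8.97), Cd9 (11.95, next 11.35), Nkg7 (12.16, next 7.01), Klrb1a (12.49, next 6.55), Klrd1 (12.18, next 6.58) and the red cell gene Slc4a1 (9.33, next 7.17), and the lowest for Myh6 (14.13, next 15.23). Nkg7, Klrb1a and Klrd1 were added to this search after their values were seen. Failing replicate 5 was the lowest failing heart for Lyve1 (10.97, next 11.61) and Vim (13.86, next 14.35). Failing replicate 1 was the lowest for Itgam (4.38, next 6.56).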

How the results depend on the processing

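Over all genes, 0 members passed by the exact permutation test (smallest possible p 0.00216), quantile normalization, median centring, an offset of 32, a minimum mean of 6, the mean of all probe sets, the replicate block and the RNA quality covariate, and 4 passed among the brighter genes, with an intensity trend and with array weights. Without 1 heart the count over all genes ran from 0 to 5 (5 without failing replicate 5, 3 without control replicate 4), and among the brighter genes from 0 (without failing replicate 3 or 4 or control replicate 6) to 6 (without failing replicate 5), with 2 without control replicate 1. All 8 other settings kept the calls of Mrc1, Lgals3, Gpnmb and Lyz2 among the brighter genes, the replicate block included. Array weights added Cd68 and Csf1r to them, and called Folr2 (0.72), Lyve1 (0.88) and Myh6 (-1.22), with adjusted p of 0.0262, 0.00919 and 0.00415. Calls over all genes (0 higher, 0 lower) were 384 and 336 among the brighter genes, 168 and 85 at a minimum mean of 6, 314 and 227 with the trend, 333 and 324 with array weights, 80 and 29 with the offset, and 0 to 294 and 0 to 382 without 1 heart (294 and 382 without control replicate 4). Among the brighter genes (384 higher, 336 lower) they were 862 and 1052 with array weights, 243 and 153 with all probe sets, 178 lower with median centring, 135 lower with the replicate block, and 131 to 726 and 46 to 962 without 1 heart (726 and 962 without control replicate 4, 131 and 50 without failing replicate 3).

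Directions that turned were all of differences that did not pass. Aif1 was -0.19 with the mean of its probe sets and -0.75 by its second one. Tyrobp was -0.0031 with the RNA quality covariate and from -0.13 to 0.41 without 1 heart. Itgam ran from -0.21 to 1.06 without 1 heart. Of the recruited list, S100a8 ran from -0.31 to 0.45, S100a9 from -0.49 to 0.35 and Il1b from -0.47 to 0.019 without 1 heart. Csf1 was 0.028 with array weights and 0.19 with all probe sets. Itgb2 was 0.44 with array weights, 0.00402 with median centring and from -0.18 to 0.36 without 1 heart (0.0025, 0.11, 0.14 and 0.05 without failing replicates 4, 1, 5 and 6). Ptprc ran from -0.93 to 0.0083 without 1 heart, and a second Cd8a probe set gave 0.058. Lgals3 minus Cd163 was 0.016 with quantile normalization and 0.10 with the offset. Without 1 heart, Lgals3 minus Cd163 ran from -0.12 to 0.14, Gpnmb minus Cd163 from -0.30 to 0.068 and Gpnmb minus Mrc1 from -0.018 to 0.12. With the replicate block Clec10a, Icam1, Lcn2 and Pdgfrb were no longer called and Lyve1 was (adjusted p = 0.0834, 0.0504, 0.0642, 0.0642 and 0.0339), and it changed no other call of a named gene among the brighter ones. The cause was not tested. No depth is known for arrays, and dim genes such as Itgam and Ccr2 spread widely after log2.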
